A study of Mus musculus with 4 samples.

Results

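The genes described here are 475 bright genes whose signal was higher on both arrays of Usp22-depleted mouse embryonic stem cells than on both arrays of control cells. They were picked from the deposited array values after log2 transformation and quantile normalization over the 4 arrays, with the brightest probe set kept for each gene that the platform annotation names with a single symbol. A gene is called bright when its mean over the 4 arrays was at least 8.2, and a bright gene is a member when its lower depleted array lay at least 0.3 above its higher control array. The 475 members are 12.1% of 3917 bright genes, which are part of 19938 genes measured. Because the members were chosen by this difference, their levels and differences are given as a description and were not tested.

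The RNA came from the mouse embryonic stem cell line E14, infected with lentivirus carrying an shRNA against Usp22 or against Luc as a control, with 2 one-colour Affymetrix arrays in each group. All 4 samples were grown without feeder cells on gelatin, in medium with 20% FBS, LIF and a pair of kinase inhibitors, 1 µM PD0325901 against MEK and 3 µM CH99021 against GSK3. The labels do not state whether the infected cells were a pool or a clone, nor which shRNA sequence was used. They also do not state that the 2 arrays of a group came from separate cultures, so the spread between them may be technical.

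Usp22 is the catalytic subunit of the deubiquitinase module of SAGA, a coactivator of RNA polymerase II genes that also holds an acetyltransferase. The enzyme removes ubiquitin from histone H2B and from some other proteins. The pair of kinase inhibitors with LIF, known as 2i and LIF, holds mouse embryonic stem cells in the naive pluripotent state, in which the cells use both glycolysis and mitochondrial respiration.

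Usp22 itself read 9.41 and 9.36 in control and 8.23 and 8.29 in depleted cells, a difference of −1.12 (limma SE 0.27, adjusted p 0.00826). The adjusted p was 0.83 without depleted replicate 1 and 0.36 without depleted replicate 2. Control replicate 2 stood apart: over all genes it correlated at 0.877 and 0.908 with the depleted arrays, against 0.951 and 0.974 for control replicate 1, and the control arrays correlated at 0.941 with each other. All 12 embryonic stem cell markers checked were bright, and their mean signal was 10.14 and 10.14 in control and 10.04 and 10.07 in depleted cells. Of the marker lists of other cells, 1 of 8 fibroblast genes (Thy1), 3 of 8 trophectoderm genes (Krt8, Krt18 and Tfap2c), 0 of 7 primitive endoderm genes, 1 of 5 mesoderm genes (Mesp1) and 1 of 6 neuroectoderm genes (Tubb3) were bright. The mean signals of these 5 lists ran from 6.70 to 7.52 in control and from 6.48 to 7.31 in depleted cells, and their part in the results was not tested.

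Members differed between the groups by 0.33 to 1.33 on the log2 scale, with a median of 0.54 and quartiles of 0.46 and 0.63. As folds these are 1.26 to 2.51, with a median of 1.45. The median difference of all bright genes was 0.07, and that of all genes was −0.12. Only 5 members reached a difference of 1, 37 reached 0.75, and 185 (38.9%) stayed under 0.5. The rule turned round, for bright genes lower on both depleted arrays, held 567 genes, or 14.5% of the bright genes. Without the brightness limit, 11.7% of all genes met the gap upward and 6.74% downward. That balance depends on the scaling: with each array centred on its median in place of quantile normalization, 970 bright genes met the rule and 90 the mirrored rule, and all 475 members were among the 970. On the deposited log2 values without scaling, 612 met the rule and 325 the mirrored rule. In bulk samples such as these, a change in the make-up of the culture and a change in RNA per cell cannot be told apart.

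**Figure D1:**
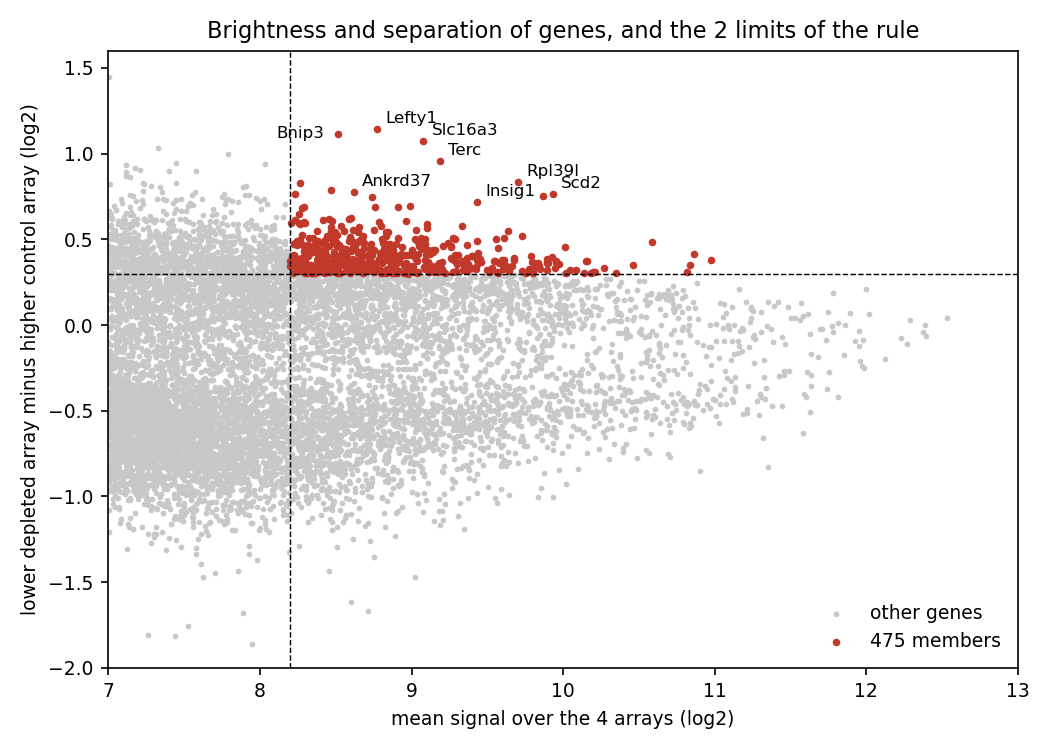
Each point is a gene, with its mean log2 signal over the 4 arrays on the horizontal axis (from 7 upward) and its lower depleted array minus its higher control array on the vertical axis. The dashed lines mark the limits of 8.2 and 0.3, and the 475 members (red) thin out towards high signal, with none at a mean of 11 or more.

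Members became rarer as signal increased. They were 15.9% of the 1202 genes with means from 8.2 to 8.6 and 14.3% of those from 8.6 to 9. Their share was 11.6% from 9 to 9.5, 9.74% from 9.5 to 10 and 4.24% of the 425 genes from 10 to 11. None of the 128 genes at 11 or above was a member (0). The mirrored rule kept a share of 13.2% to 16.6% in every band under 11 and held 3.12% of the genes at or above it. The 6 brightest members were Ldha (lactate dehydrogenase), Rmrp (the RNA of RNase MRP), Nop10 (a protein of H/ACA small nucleolar ribonucleoproteins), Cox6b1 (a subunit of cytochrome c oxidase), Cstb (a cathepsin inhibitor) and Pgk1 (phosphoglycerate kinase). Cox6b1 also had the smallest difference of all members, 0.33, with 10.66 and 10.65 in control and 10.96 and 11.01 in depleted cells.

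By known function the members were sorted into 14 role groups, and 47 were left unsorted. The groups held 69 genes of the endoplasmic reticulum and Golgi, 41 of the respiratory chain and other mitochondrial functions, 36 of protein folding and turnover, and 34 each of RNA and translation and of cell cycle and repair. Cell surface and transport held 33, transcription and chromatin 32, lipid metabolism 31, pluripotency and signalling 25, the endosome and lysosome 25, the cytoskeleton and nuclear transport 21, other metabolism 20, hypoxia and glycolysis 15 and the mitochondrial ribosome 12. Median differences of these groups ran from 0.47 for the respiratory chain group to 0.60 for lipid metabolism, so no group stood far from the median of all members.

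The limits of the rule fell among genes that hardly differ in value. The members with the smallest gaps were Shmt1 (0.3) and Pgrmc2, Lin7c and Tcn2 (0.301 each), and the bright genes just under the gap were Csnk2a1, Mrps35 and Tomm34 (0.3 after rounding) and Clic4 (0.299). The dimmest members were Cul5, with a mean of 8.2, Efcab14 (8.201), Scarna13 (8.204) and Cul2 (8.212). Just under the brightness limit, with the gap met, lay H2ac1 (8.199), Nol8 and Cdh3 (8.198 each) and Crtap (8.196). These neighbours are given once, as a description.

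The size of the separation differed with the control array it was read against. Control replicate 2 lay under control replicate 1 in 407 members (85.7%), against 65.1% of the other bright genes. The median member signal was 8.53 on control replicate 1, 8.38 on control replicate 2, and 9.05 and 8.99 on the depleted arrays. Against control replicate 1 alone the median difference of the members was 0.44, and against control replicate 2 alone it was 0.62. The depleted mean was at least 1.5-fold above the control mean in 170 members and at least 1.5-fold above control replicate 1 in 70. The control arrays were within 0.1 of each other in 162 members and more than 0.5 apart in 16. The part of this array in the members' differences was not tested beyond these values.

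**Figure D2:**
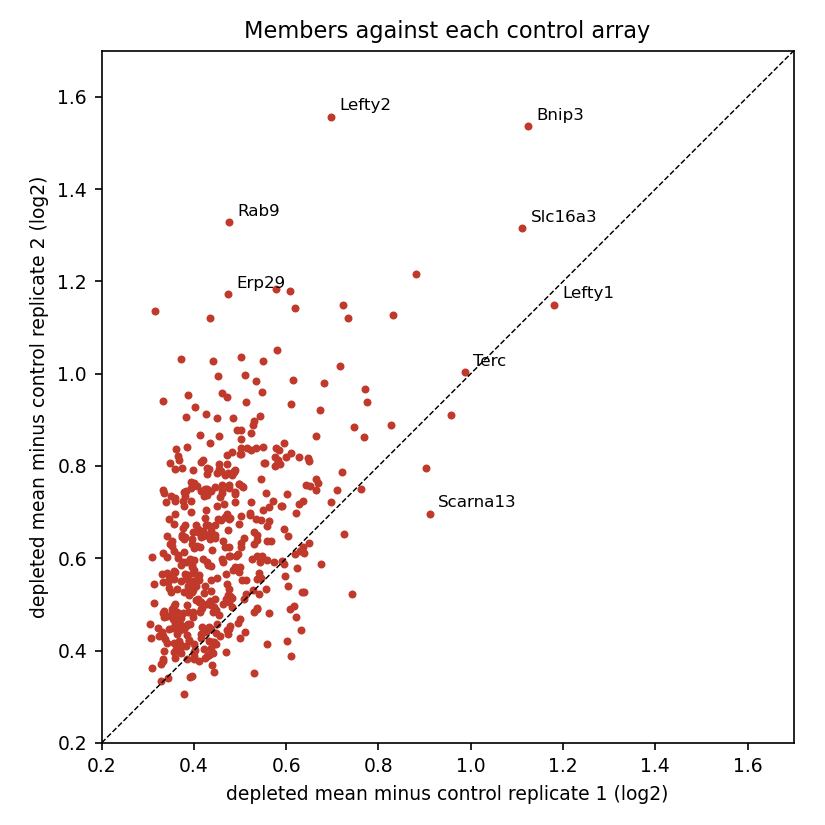
Each point is a member, with the depleted mean minus control replicate 1 on the horizontal axis and the depleted mean minus control replicate 2 on the vertical axis, both log2. Most points lie above the dashed line of equal values, Lefty2 (0.70 and 1.56) and Rab9 (0.48 and 1.33) farthest, while Lefty1 (1.18 and 1.15) and Terc (0.99 and 1.00) lie near it.

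The largest differences belonged to genes of hypoxia and lactate export and to Nodal inhibitors. Bnip3, a mitophagy receptor of the outer mitochondrial membrane that low oxygen induces, read 8.06 and 7.65 in control and 9.17 and 9.19 in depleted cells. Its difference of 1.33, or 2.51-fold, was the largest of all members, and it was 1.12 against control replicate 1 alone. Slc16a3, the lactate exporter MCT4, read 8.57 and 8.37 in control and 9.64 and 9.72 in depleted cells, a difference of 1.21. Ankrd37, an ankyrin repeat protein induced by hypoxia, read 8.26 and 7.93 in control and 9.04 and 9.25 in depleted cells, a difference of 1.05. For all 3 genes control replicate 2 was the lowest array, and the depleted arrays lay closer together than the control arrays.

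Of 26 genes on a hypoxia list, 11 were bright and 5 were members: Bnip3, Ankrd37, Ero1a, Higd1a and Ddit4. The share of members, 45.5%, stands beside 12.1% of all bright genes, and the list's bright genes had a median difference of 0.50 (0.30 without control replicate 2). Ero1a, the oxidase that makes disulfide bonds in the endoplasmic reticulum, read 8.36 and 8.37 in control and 9.12 and 9.12 in depleted cells. Its control arrays agreed to within 0.1, and it was 1.69-fold higher. Higd1a, a small protein of the inner mitochondrial membrane, read 8.59 and 8.35 against 9.30 and 9.03, although a further, dimmer probe set of this gene differed by only 0.05. Ddit4, an inhibitor of mTORC1 signalling, differed by 0.59. Some other bright genes of the list were lower: Zfp395 met the mirrored rule (−0.43), and Ak4 (adenylate kinase) and Epas1 (HIF-2 alpha) differed by −0.24 and −0.17. By limma 6 of the 26 genes passed the adjusted p of 0.05 and were higher, 0 were lower, and 4 of the 6 were too dim to be members: Egln3 (1.19) and P4ha1 (0.96), oxygen-dependent hydroxylases, Kdm4c (1.10), a histone demethylase, and Plod2 (0.91), a lysyl hydroxylase. Over all genes 2.62% were called higher and 0.105% lower. These calls use 1 SE for all genes, while the median SD of the control arrays was 0.26 over all genes and 0.15 over bright genes. With limma's variance allowed to follow the signal, 326 genes were called higher and 286 lower over all genes, so calls of dim genes depend on the fit. Hif1a, which encodes HIF-1 alpha, was dimmer, at 7.72 and 6.84 in control and 8.04 and 7.74 in depleted cells.

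Glycolysis and glucose transport contributed 7 members of 15 bright genes (46.7%), and none of its genes met the mirrored rule (0). They were the lactate transporters Slc16a3 and Slc16a1, Pdk1 (which inhibits pyruvate dehydrogenase), Pfkl (phosphofructokinase), Tpi1 (triosephosphate isomerase), Ldha and Pgk1. Ldha read 10.75 and 10.71 in control and 11.13 and 11.31 in depleted cells, a difference of 0.49. Pgk1 read 10.23 and 10.28 against 10.63 and 10.71, and Pfkl read 8.56 and 8.58 against 9.11 and 9.09. In these 3 genes the control arrays were close together, so leaving out control replicate 2 moved the difference by little, to 0.47, 0.44 and 0.54. Some other bright genes of the pathway were lower or near equal: Pkm (pyruvate kinase) differed by −0.29, Ldhb by −0.21, the glucose transporter Slc2a3 by −0.26 and Pgam1 by −0.07. The median over the bright genes of the list was 0.42, and limma called 2 of its 24 measured genes higher, Slc16a3 and the dim Aldoc (0.98), and 0 lower. With arrays centred on their medians and on values without scaling, the bright medians were 0.66 and 0.52 for glycolysis and 0.68 and 0.54 for hypoxia, beside 0.29 and 0.15 for all bright genes.

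Promoters of hypoxia and glycolysis members are shown because the ACGTG core of the hypoxia response element is a known feature of such genes. The lines below give the 250 bases before the start site, read in the direction of transcription, from RefSeq on GRCm38.p6, with capitals marking ACGTG on either strand (the palindrome CACGTG holds it on both). Bnip3 lies at chr7:138909507-138909756 on the minus strand, Slc16a3 at chr11:120948817-120949066 on the plus strand, Ankrd37 at chr8:45999851-46000100 on the minus strand, Ldha at chr7:46845554-46845803 on the plus strand and Pdk1 at chr2:71872974-71873223 on the plus strand. For Ldha and Pdk1 the table held 2 promoters, and the most upstream was taken.
Bnip3: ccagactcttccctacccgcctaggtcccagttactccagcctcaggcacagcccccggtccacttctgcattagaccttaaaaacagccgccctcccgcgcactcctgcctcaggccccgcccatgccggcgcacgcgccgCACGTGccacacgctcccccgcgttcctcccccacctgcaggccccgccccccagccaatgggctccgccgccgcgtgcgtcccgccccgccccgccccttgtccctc
Slc16a3: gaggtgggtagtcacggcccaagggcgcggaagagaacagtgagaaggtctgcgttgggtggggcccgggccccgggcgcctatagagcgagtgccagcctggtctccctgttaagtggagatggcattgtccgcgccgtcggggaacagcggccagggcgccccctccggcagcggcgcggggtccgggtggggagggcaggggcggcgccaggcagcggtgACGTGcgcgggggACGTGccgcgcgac
Ankrd37: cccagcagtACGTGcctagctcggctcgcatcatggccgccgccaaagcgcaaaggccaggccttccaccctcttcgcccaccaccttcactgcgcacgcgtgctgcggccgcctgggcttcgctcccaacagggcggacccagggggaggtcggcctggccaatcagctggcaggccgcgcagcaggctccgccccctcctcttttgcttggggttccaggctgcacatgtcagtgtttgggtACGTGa
Ldha: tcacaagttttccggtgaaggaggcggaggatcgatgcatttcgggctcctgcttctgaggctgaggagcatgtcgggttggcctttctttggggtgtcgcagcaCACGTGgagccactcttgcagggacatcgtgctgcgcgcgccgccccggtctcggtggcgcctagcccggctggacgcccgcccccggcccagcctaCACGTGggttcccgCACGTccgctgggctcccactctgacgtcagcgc
Pdk1: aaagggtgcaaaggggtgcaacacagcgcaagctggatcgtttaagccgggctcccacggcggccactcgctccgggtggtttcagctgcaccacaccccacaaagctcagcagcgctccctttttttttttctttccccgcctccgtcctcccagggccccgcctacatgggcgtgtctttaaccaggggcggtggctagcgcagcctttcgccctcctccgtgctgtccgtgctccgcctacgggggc

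Matches began 108 and 107 bases before the start of Bnip3, where 1 palindrome gives both, 27 and 14 before that of Slc16a3, and 241 and 6 before that of Ankrd37. Ldha held 5 matches in 3 places, and Pdk1 held 0 in this window. Counted over 300 bases (250 before and 50 after the start), ACGTG stood in the promoters of 10 of the 15 members sorted to hypoxia and glycolysis. Of the fixed hypoxia list, it stood in 5 of 5 members and in 7 of the 15 other genes with a promoter in the table. For the glycolysis list it stood in 4 of 7 members and 8 of 16 others. Across all 390 members with a promoter the share was 29.7%, close to 28.4% of the other bright genes, while 21.7% of all genes held it. A match describes the letters in the window and does not show binding.

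Lipid genes formed another group, with 31 members sorted to it and a median difference of 0.60, the highest of the 14 role groups. Cyp51, the lanosterol demethylase of cholesterol synthesis, read 8.73 and 8.31 in control and 9.49 and 9.43 in depleted cells, a difference of 0.94. Insig1, which holds back the SREBP pathway and is itself switched on by it, read 9.10 and 8.96 against 9.81 and 9.87. Scd1 and Scd2, the stearoyl-CoA desaturases, were at 9.51 and 9.41 (Scd1) and 9.59 and 9.42 (Scd2) in control cells. In depleted cells Scd1 read 10.26 and 10.29, and Scd2 read 10.37 and 10.35. The 2 desaturases thus differed by nearly the same amount, 0.81 and 0.86, and they are close paralogs whose probes may share targets. Prelid2, a member of a family of mitochondrial lipid transfer proteins, had the seventh largest difference of all members, 0.98, from 7.92 and 7.63 to 8.76 and 8.75.

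The list of cholesterol synthesis and its SREBP regulators had 5 members among 10 bright genes: Cyp51, Insig1, Msmo1 (sterol methyl oxidase), Dhcr7 (the last reductase) and Sqle (squalene epoxidase). Dhcr7 read 8.80 and 8.80 in control and 9.39 and 9.40 in depleted cells, so each pair of arrays agreed closely. Sqle read 9.33 and 9.37 against 9.91 and 9.94. The bright genes Fdft1, Fdps and Hmgcs1 differed by 0.33, 0.34 and 0.29 and missed the gap, whereas Mvd and Mvk, enzymes of the mevalonate steps, differed by −0.52 and −0.37. The median of the bright genes was 0.46 and was 0.45 without control replicate 2. Limma called 3 of 21 measured genes higher (Cyp51 and the dim Idi1 and Lss) and 0 lower, beside 2.62% of all genes called higher. For fatty acid synthesis and desaturation, 3 of 9 bright genes were members (Scd2, Scd1 and the elongase Elovl5) and none met the mirrored rule (0), while Fasn, the fatty acid synthase, differed by −0.16.

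CCAAT boxes bind NF-Y, which many sterol gene promoters use beside SREBP, so 2 sterol promoters are printed from the same table, with CCAAT on either strand in capitals. Cyp51 lies at chr5:4104698-4104947 on the minus strand and Insig1 at chr5:28071162-28071411 on the plus strand.
Cyp51: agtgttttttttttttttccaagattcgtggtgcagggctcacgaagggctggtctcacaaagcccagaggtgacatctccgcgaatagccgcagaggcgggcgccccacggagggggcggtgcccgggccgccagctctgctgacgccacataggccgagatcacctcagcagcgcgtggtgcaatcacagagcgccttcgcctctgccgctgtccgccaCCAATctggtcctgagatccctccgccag
Insig1: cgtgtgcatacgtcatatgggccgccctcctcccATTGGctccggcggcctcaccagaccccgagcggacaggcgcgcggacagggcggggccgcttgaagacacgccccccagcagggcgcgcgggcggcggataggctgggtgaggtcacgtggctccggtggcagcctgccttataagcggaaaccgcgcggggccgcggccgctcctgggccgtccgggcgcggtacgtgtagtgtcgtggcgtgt

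The match began 29 bases before the start in Cyp51, and 216 before it in Insig1, where it lies on the other strand. CCAAT stood in 3 of 4 cholesterol members with a promoter and in 12 of 13 other genes of that list, so it was no rarer outside the members. Over all members it stood in 46.2% of promoters, over the other bright genes in 41.0%, over the mirrored genes in 37.5% and over all genes in 38.4%. Of the other motifs searched on both strands, CACGTG (which contains ACGTG) stood in 14.4% of member promoters and 12.1% of those of other bright genes. TATAAA stood in 6.15% and 6.92%, CCGGAAG, an ETS motif, in 22.3% and 23.5%, and CTTTGAT, a LEF/TCF motif, in 1.28% and 2.73%. Over all genes CACGTG stood in 8.42%, TATAAA in 12.1%, CCGGAAG in 12.5% and CTTTGAT in 3.21%. Member promoters had a median GC content of 60.7% and a CpG ratio (observed over expected) of 0.80, against 61.0% and 0.83 in the other bright genes.

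The secretory pathway was the largest group, with 69 members of the endoplasmic reticulum (ER) and Golgi and a median difference of 0.57. Of the fixed list of ER translocation and glycosylation, 39 of 163 genes were bright, 14 were members (35.9%) and 4 met the mirrored rule. These members cover successive steps: Srp14 of the signal recognition particle, Ssr3 and Ssr4 of the translocon-associated complex, Spcs2 and Spcs3 of the signal peptidase, and Ddost and Rpn2 of the oligosaccharyltransferase. Others make the sugar donors and anchors, among them Dpm1 and Dpm3 (dolichol phosphate mannose synthase), Alg3 and Alg13 (lipid-linked oligosaccharide), and Pigx and Pigf (GPI anchor). Alg3 read 7.99 and 7.88 in control and 8.71 and 8.59 in depleted cells, a difference of 0.72. Dpm1 read 8.40 and 7.71 against 8.90 and 8.77. Its difference of 0.78 was 0.43 against control replicate 1 alone, whereas that of Alg3 was 0.66. The bright genes of the list had a median difference of 0.38 and of 0.29 without control replicate 2. Limma called 10 of the 163 genes higher and 0 lower, beside 2.62% of all genes called higher. None of the list's 14 members was among the 10. The 17 bright genes called higher were all members, so the 10 lay under the brightness limit, where calls depend on the fit.

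Proteins of the endosome and lysosome included Lamp2, an abundant lysosomal membrane protein, and Rab9, a GTPase of endosome-to-Golgi transport. Lamp2 read 8.02 and 7.63 in control and 8.80 and 8.71 in depleted cells. Rab9 read 8.46 and 7.61 against 9.04 and 8.85, and its difference of 0.90 was 0.48 against control replicate 1 alone. Among vesicle transport genes as a whole, 9 of 92 bright genes were members (9.78%) and 18 were mirrored, beside 12.1% and 14.5% of all bright genes. Their bright median of −0.11 became 0.11 with each array centred on its median, while that of all bright genes went from 0.07 to 0.29. The lysosome and autophagy list held 5 members (Lamp2, Atp6ap2 and Atp6v0e of the proton pump, and the cathepsins Ctsb and Ctsl) and 6 mirrored genes among 37. Its share of members, 13.5%, was near that of all bright genes.

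**Figure D3:**
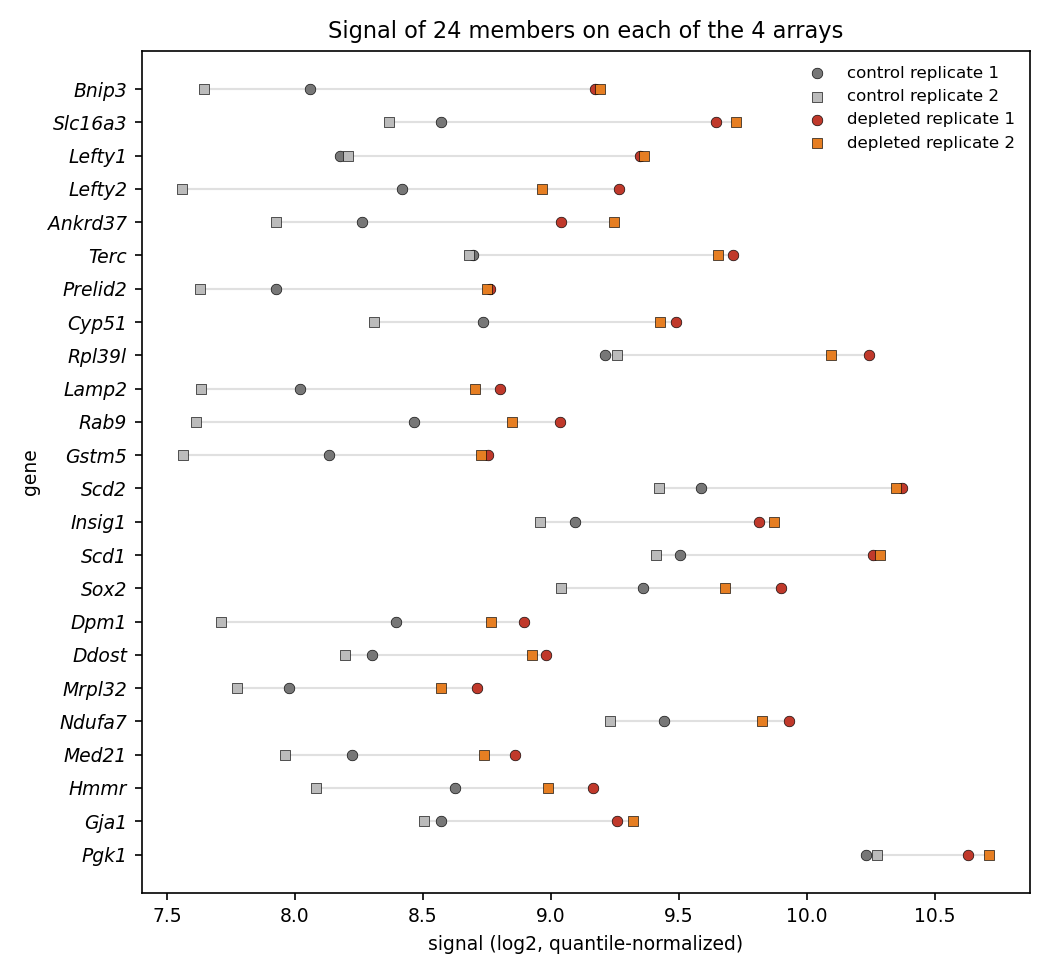
The log2 quantile-normalized signal of 24 members is plotted on each of the 4 arrays, control in greys and depleted in red and orange. The groups do not overlap in any row, as the rule requires, and the control arrays are far apart for Lefty2 (8.42 and 7.56) and close together for Terc (8.70 and 8.68) and Lefty1 (8.18 and 8.21).

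Mitochondrial genes, in 3 lists, had shares of members near the 12.1% of all bright genes, and 2 genes in all were mirrored. Of 87 bright genes of the respiratory chain and ATP synthase, 14 were members (16.1%) and none met the mirrored rule (0), with a median difference of 0.24 over the list. They came from complex I (Ndufa6, Ndufa7, Ndufb3, Ndufb5, Ndufb6, Ndufb8, Ndufs4, Ndufv3 and the assembly factor Ndufaf3), complex III (Uqcrb), cytochrome c (Cycs) and complex IV (Cox6b1, Cox6b2 and Cox7a1). Ndufa7 read 9.44 and 9.23 in control and 9.93 and 9.83 in depleted cells, a difference of 0.54, the largest of the 14. Of 62 bright mitochondrial ribosomal protein genes, 10 were members (16.1%) and none met the mirrored rule (0), with a median of 0.29. Mrpl32, of the large subunit, read 7.98 and 7.78 against 8.71 and 8.57. The carriers and import list had Mtx1, Slc25a12 (the aspartate/glutamate carrier) and the import subunits Tomm20 and Tomm5 as members, 4 of 39 (10.3%), and 2 mirrored genes. Limma called 2 of the 99 respiratory genes measured and 0 of the 75 mitochondrial ribosomal genes higher, beside 2.62% of all genes.

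Cytosolic ribosomal proteins had few members. Of 60 bright genes, 1 was a member, none met the mirrored rule (0), and the median was 0.07, that of all bright genes. Members were also few among the brightest genes of any kind, 4.24% from 10 to 11 and 0 of 128 at 11 or above. The part of signal level in the low share was not tested. The 1 member was Rpl39l, a paralog of Rpl39 known from male germ cells. It read 9.21 and 9.26 in control and 10.24 and 10.09 in depleted cells, a difference of 0.93. Its control arrays were close together. Splicing and mRNA-binding genes had 3 members (Snrpe, Snrpc and Lsm5) and 21 mirrored genes among 111, and chromatin remodelling and histone modification 1 member, Hdac2, and 15 mirrored genes among 40. The bright median of the chromatin list was −0.38, or −0.16 with median centring, and that of the splicing list was −0.04, or 0.19. Centring moved the median of all bright genes likewise, from 0.07 to 0.29. Both lists lay under it with either scaling.

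**Figure D4:**
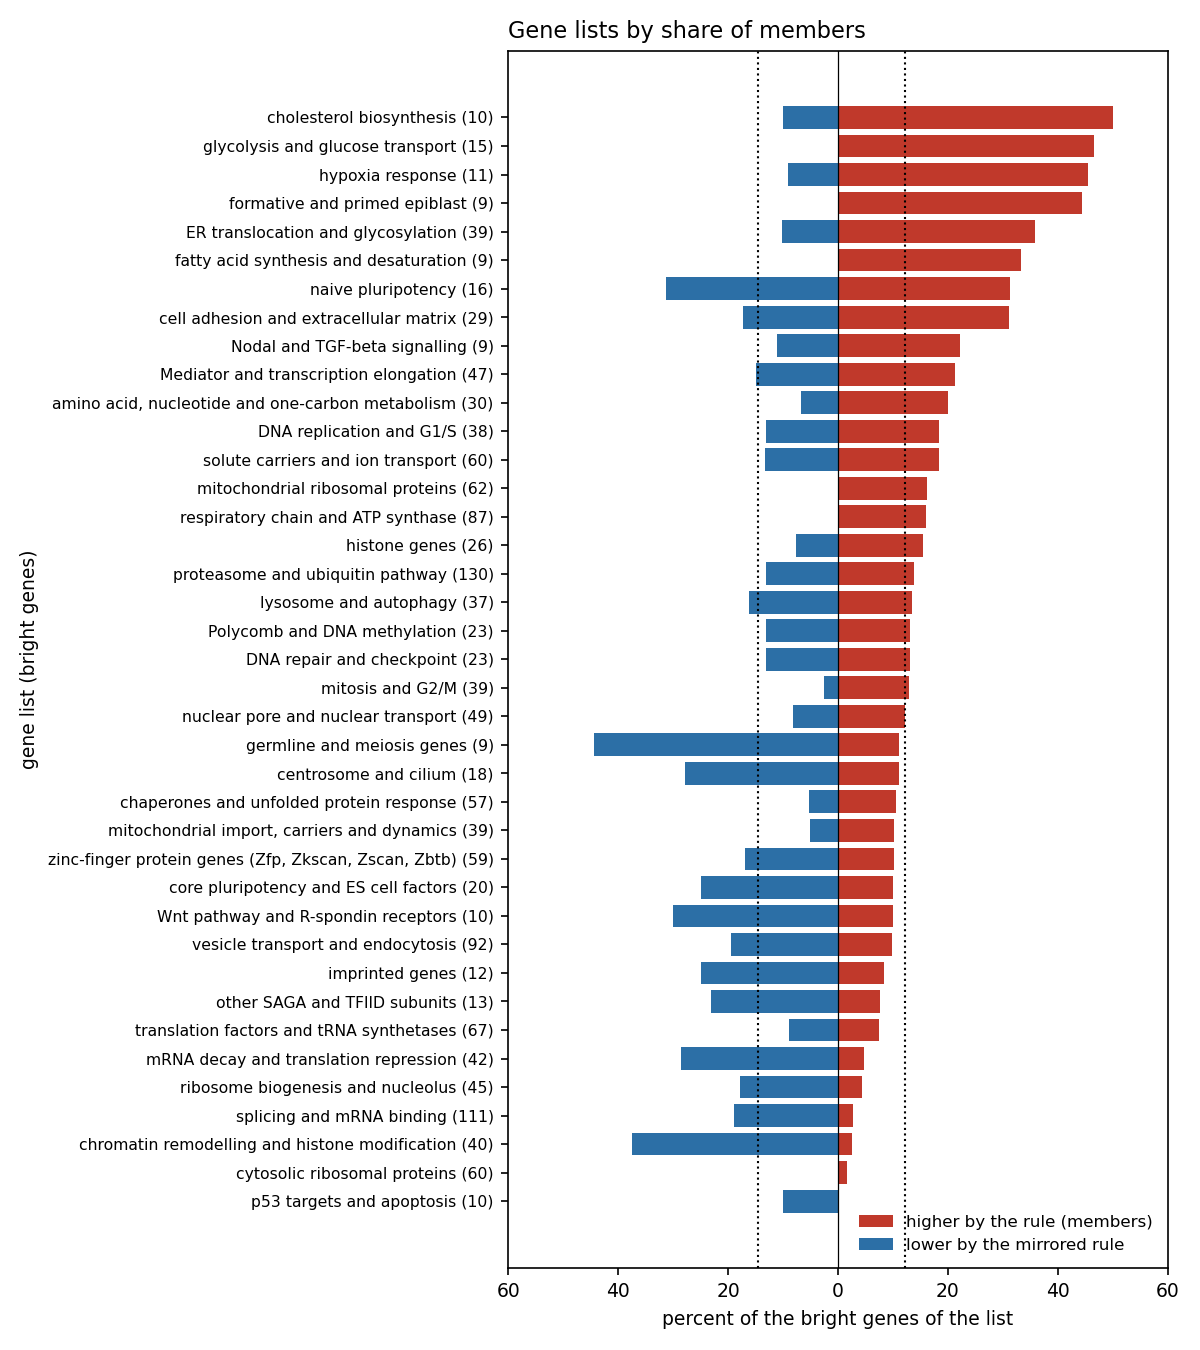
For each list shown, all with at least 9 bright genes (number in brackets), the red bar to the right is the percent of its bright genes that are members and the blue bar to the left the percent that meet the mirrored rule. Dotted lines mark 12.1% and 14.5% of all bright genes, and the bars run from 50% members for cholesterol synthesis to 0 members among 10 p53 targets and apoptosis genes.

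The members included 4 non-coding RNAs. Terc, the RNA template of telomerase, read 8.70 and 8.68 in control and 9.71 and 9.65 in depleted cells, a difference of 1.00 that hardly depends on the control array. Rmrp read 10.52 and 10.70 against 11.13 and 11.12. The others were Scarna13, a guide RNA of the Cajal body (0.80), and Snora52, a small nucleolar RNA (0.57). Nop10, a protein of H/ACA particles and of telomerase, read 10.68 and 10.59 against 11.06 and 11.03. All other 471 members are protein-coding genes by RefSeq.

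Regulators of pluripotency were found in both directions. Lefty1 and Lefty2, secreted inhibitors of Nodal, were among the largest differences. Lefty1 read 8.18 and 8.21 in control and 9.35 and 9.37 in depleted cells, a difference of 1.17. Lefty2 read 8.42 and 7.56 against 9.27 and 8.97, and its difference of 1.13 was 0.70 against control replicate 1 alone. Nodal itself, at 9.44 and 9.08 against 9.48 and 9.42, was not a member. Sox2, a core pluripotency factor, read 9.36 and 9.04 in control and 9.90 and 9.68 in depleted cells, a difference of 0.59. Its partners Pou5f1 and Nanog differed by −0.32 and −0.42, and Nanog met the mirrored rule. The core pluripotency list had 2 members (Sox2 and Zfp281) and 5 mirrored genes (Nacc1, Sall4, Trim28, Nanog and Hcfc1) among 20 bright genes. Its bright median was −0.32, and −0.10 with arrays centred on their medians.

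On the naive pluripotency list 5 of 16 bright genes were members and 5 met the mirrored rule. The members were Pecam1 (a surface protein of naive cells), Nr0b1 (the nuclear receptor Dax1), Klf5, Il6st (gp130, the shared receptor subunit for LIF) and Fgf4. Klf5 read 9.51 and 9.63 in control and 10.26 and 9.97 in depleted cells, and Il6st read 8.33 and 8.33 against 8.85 and 8.88. The mirrored genes were the transcription factors Tbx3, Klf4, Tfcp2l1, Esrrb and Stat3. The list's bright median was 0.11, near that of all bright genes, and limma called 0 of its 22 genes in either direction. Formative and primed epiblast genes had 4 members among 9 bright genes (Lefty1, Lefty2, Otx2 and Dnmt3b) and 0 mirrored genes, yet the median of these 9 was 0.19, and 0.02 without control replicate 2. Of the 26 genes measured on that list, limma called 4 higher and 0 lower, beside 2.62% and 0.105% of all genes. Otx2, a transcription factor of the epiblast, read 8.34 and 7.92 against 8.83 and 8.82.

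Cell cycle and repair members numbered 34. Gins1 of the replicative helicase read 8.21 and 7.63 in control and 8.65 and 8.66 in depleted cells, and Rfc4 of the clamp loader read 8.34 and 7.97 against 8.86 and 8.87. Both had control replicate 2 well below control replicate 1, and their differences of 0.73 and 0.71 were 0.44 and 0.53 against control replicate 1 alone. The mitotic kinase Bub1 read 8.97 and 8.96 in control and 9.58 and 9.45 in depleted cells, so its difference of 0.55 did not turn on that array. On the replication list 7 of 38 bright genes were members and 5 mirrored, and the bright median of 0.14 was −0.06 without control replicate 2. On the mitosis list 5 of 39 bright genes were members and 1 (Ncapd2) mirrored, with a median of 0.36, or 0.24 without that array.

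Genes of the transcription machinery were found in both directions. The Mediator and elongation list had 10 members among 47 bright genes: the Mediator subunits Med6, Med14, Med21, Med28, Med30 and Med31, the Mediator kinase Cdk8, Gtf2a2 of TFIIA, and Polr2i and Polr2j of RNA polymerase II. Med21 read 8.22 and 7.96 in control and 8.86 and 8.74 in depleted cells. The 7 mirrored genes included Polr2a, the largest subunit of the polymerase, Supt5, Cdk9 and Paf1. The bright median of the list was 0.08, close to that of all bright genes. Of SAGA and TFIID beside the deubiquitinase module, Taf9, which both complexes share, was the 1 member among 13 bright genes, at 8.43 and 8.50 against 9.32 and 8.99. The deubiquitinase module had 0 members among 4 bright genes, and Usp22 and Atxn7l3 met the mirrored rule.

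In the ubiquitin and proteasome pathway 18 of 130 bright genes were members and 17 mirrored, shares near 12.1% and 14.5%. Trim13, a ubiquitin ligase of the ER membrane, read 7.90 and 7.70 in control and 8.66 and 8.67 in depleted cells. Ube2g1, a ubiquitin-conjugating enzyme, read 7.95 and 7.65 against 8.77 and 8.56. Cell adhesion and matrix genes held 9 members among 29 bright genes (31.0%) and 5 mirrored genes. The members included the connexins Gja1, Gjb5 and Gjc1, the laminin Lamb1, the integrin Itga6, Epcam and Cldn6. Gja1, the main connexin of embryonic stem cells, read 8.57 and 8.51 against 9.26 and 9.32, with both pairs of arrays close. Gstm5, a glutathione transferase, read 8.13 and 7.56 against 8.76 and 8.73, and its difference of 0.89 was 0.61 against control replicate 1 alone.

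Lists with few bright genes are given by their counts. FGF and ERK signalling had 1 member, Fgf4, among 6 bright genes, and the interferon response 1, B2m (the light chain of class I MHC), among 5, both with 0 mirrored genes. Primitive endoderm regulators had 1 member, Lamb1, and 1 mirrored gene among 4, and fibroblast markers had 1 member, Timp1 (an inhibitor of metalloproteinases), and 0 mirrored among 3. Trophectoderm regulators had 0 members and 3 mirrored genes among 4, and neuroectoderm and mesoderm regulators 0 members and 1 mirrored gene among 3.

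A further probe set gives a second reading of the same gene that the rule did not use, though in the same RNA. Of the members, 49 had 69 further probe sets, and 61 of the 69 (88.4%) were higher on both depleted arrays than on both control arrays, while 1, of Camta1, was lower on both. Among the further sets of bright genes that met neither rule, 404 of 856 (47.2%) were higher and 163 lower, and over all genes 38.6% of 1851 were higher and 22.8% lower. The median difference of the members' further sets was 0.52, against 0.10 for those of all genes. The further set of Bnip3 differed by 1.05. Some further sets are near copies of the brightest set, as for Pgk1 (0.41 and 0.42), and add nothing of their own. A further set each of Ap3s1, Ube2v2 and Vma21 also matched its brightest set in mean and difference. Such copies are counted among the 61. For the mirrored genes, 56 of 87 further sets (64.4%) were lower on both depleted arrays. The further readings of Btf3l4 (0.09, against 0.61 for the brightest set), Higd1a (0.05 against 0.70), Ptpn2 (0.03 against 0.67) and Ssbp1 (0.08 against 0.48) were near 0. Camta1, with 0.71 on its brightest set, had 3 further sets at 0.72, −0.20 and −0.32. All 3 were dim, with means of 6.82, 5.95 and 5.30, and so was the further set of Ptpn2 (6.81). These means lie under 6.99, the 95th percentile of receptor genes.

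**Figure D5:**
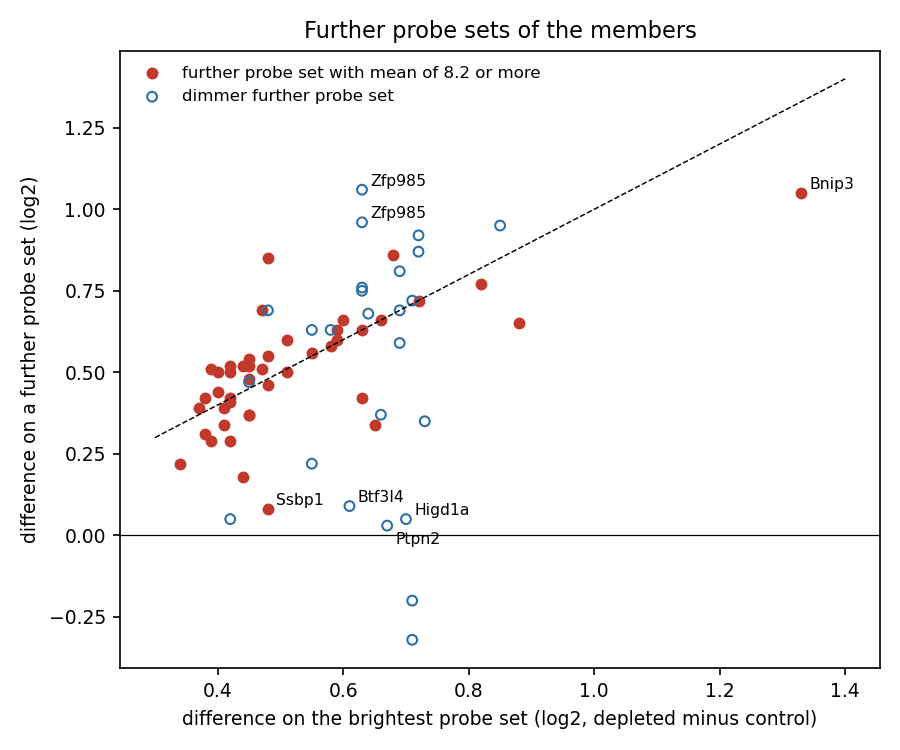
Each point is a further probe set of a member, with the log2 difference of the member's brightest set on the horizontal axis and its own on the vertical axis. Filled points have means of 8.2 or more, open points are dimmer, the dashed line marks equal values, and 61 of the 69 sets were higher on both depleted arrays.

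By features that were not part of the rule, the members lay near the other bright genes in gene length. Their genes had a median length of 15.9 kb, near the 16.4 kb of the other bright genes, while the mirrored genes were longer, at 23.3 kb. Of the members 23 (4.84%) lie on the X chromosome, against 2.41% of the other bright genes. Along the genome 27 pairs of members are next neighbours, of 471 placed between protein-coding genes. These are 2.76% of the 979 neighbouring pairs of bright genes, and 40 pairs (4.09%) were both mirrored. Examples with under 0.2 kb between the genes are Fam162a and Ccdc58 (0.099 kb apart), Pigf and Cript (0.16 kb) and Hmmr and Nudcd2 (0.181 kb), while Ufsp2 and Ankrd37 overlap by 0.05 kb. The differences within these pairs were 0.41 and 0.38, 0.52 and 0.57, 0.72 and 0.48, and 0.52 and 1.05.

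By limma, 17 of the 475 members passed the adjusted p of 0.05, out of 523 genes called higher among all 19938 (2.62%), and nothing is read from this since the rule used the same contrast. With limma's variance trend, 122 members passed, and with trend and robust estimation 156. The 17 are 0.434% of the bright genes, and 9 bright genes (0.23%) were called lower. All genes shared an SE of 0.27, so that no difference under 0.86 could be called, and 263 members had an unadjusted p under 0.05. With 2 arrays in each group, the smallest p an exact permutation test can reach is 0.333.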

How the data were processed

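The authors deposited 1 linear intensity per probe set and array, in a table of 28856 probe sets; how these were summarised and scaled is not given in the sources used here. RNA was extracted with Trizol and a column, per the labels' protocols. The deposited intensities started at 16.0 on every array, with medians from 110 to 128. Log2 values were then quantile-normalized between arrays. GEO's platform annotation gave 1 symbol to 21789 probe sets, several to 1621 and none to 5446, and 999 genes had several probe sets. Other scaling and the mean of a gene's probe sets were alternatives.

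The members and the 47 gene lists were chosen with earlier results of these data known. The 428 members sorted into 14 role groups were sorted by hand, and symbols of some pattern lists were updated, after the members were known; 198 members are on at least 1 list. The result of 1 list was left out. Genes were named by rule: Usp22, the 12 members with the largest differences, the 6 brightest, those at the limits, up to 4 members a list, those whose probe sets differ most, and neighbours. Other members and the other genes of lists are named as examples, chosen after their values were seen.

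All genes were tested together by limma's lmFit and eBayes (limma 3.58.1, R 4.3.3), comparing 2 groups with a two-sided test and a Benjamini-Hochberg adjusted p below 0.05. The fit was first run on simulated data with the same SD for every gene and no array set apart. It therefore does not check the calls under the unequal spread of these arrays. The fit had 2 residual degrees of freedom. The number of arrays limits the precision. Probe sets matched RefSeq (GRCm38.p6) through the gene ID in 21698 cases, and RefSeq promoters were matched for 390 of the 475 members. Protein sequences and a genome were not used here.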

Additional observations from a re-analysis of the deposited data

How the results depend on the processing

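Counts moved with the scaling and with single arrays. Leaving out an array cannot narrow the gap, so member and mirrored counts could then fall only through a shift in mean signal. With each array centred on its median, 970 genes met the rule and 90 the mirrored rule, the median member difference was 0.75, and limma called 927 genes higher. On the log2 of the deposited values with no scaling, 612 met the rule and 325 the mirrored rule, and limma called 75 higher and 10 lower. The median of all genes was −0.12 with quantile normalization, −0.09 with centring and −0.24 on the deposited log2 values, and that of bright genes 0.07, 0.29 and 0.15. With 1 array left out, the members ranged from 510 to 1353 (without control replicate 1; 743 without depleted replicate 2), the mirrored genes from 674 to 1157, the median member difference from 0.44 to 0.62, and limma calls from 0 to 4884 higher and from 0 to 4236 lower. Without control replicate 2 limma called 66 higher and 2 lower; without depleted replicate 1 it called 0 and 0, and without depleted replicate 2, 0 and 1. A brightness minimum of 7.8 gave 715 members and one of 8.6 gave 284. A gap of 0.2 gave 870 members and 950 mirrored genes, and one of 0.5 gave 68 and 56. Leaving out the dimmer 0.5 of genes gave 148 limma calls lower; eBayes with trend gave 326 higher and 286 lower, and with trend and robust 339 lower.

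With the replicate number as a block, limma called 856 genes higher and 42 lower. Of the members 28 passed in place of 17 (122 with trend and 156 with trend and robust, both without the block). Replicate 1 minus replicate 2 in control cells correlated at 0.105 with the same difference in depleted cells, over all genes. The replicate numbers were therefore not taken as pairs. Of 1152 differences recomputed for 144 named genes other than Usp22, 0 reversed and 154 moved by at least the replicate SD. These genes had both depleted arrays above both control arrays, so leaving out 1 array or adding the block could not reverse them. Probe sets near the floor limit the dim genes named: the 95th percentile of 1194 receptor genes was 6.99.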

Other observations

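Bright probe sets that carry several symbols or none are outside the rule. There were 1486 of them, 83 met the same limits as the members and 126 the mirrored limits. They were counted and not named.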
